A study of Mus musculus with 6 samples.

Results

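The V2r receptors are one of the receptor families of the vomeronasal organ, and they were examined here in mouse embryos with 1 or no working copy of Fezf1, in cells that were taken by sorting from main olfactory epithelium. Members were the genes named Vmn2r with a number that had a probe set assigned to a single gene symbol, with the probe set of highest mean over all 6 arrays standing for each gene. This gave 46 V2r genes of 19938 genes measured. RefSeq lists 126 V2r genes, of which a further 36 were represented only by probe sets that carry several symbols and 44 by neither kind.

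Both groups were E18.5 embryos on a C57BL/6 background. The heterozygous group (Fezf1+/-, 3 arrays) and the null group (Fezf1-/-, 3 arrays) share a targeted Fezf1 allele in which EGFP is driven by the gene's own promoter, and the sort took the fluorescent cells of each, so the controls also carry the targeted allele. The cells profiled were therefore selected for fluorescence driven by the Fezf1 promoter, from microdissected tissue, and the heterozygotes are not wild type. The sort does not show that every cell profiled had an active Fezf1 promoter. The labels do not say whether replicates are separate embryos, litters or pools, so p-values measure only the spread between these samples, which may be technical. Values are log2 signals of Affymetrix Mouse Gene 1.0 ST arrays, on which a difference of 1 is 2-fold, and differences are given as null minus heterozygous.

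V2r receptors are class C G-protein-coupled receptors with a long extracellular ligand-binding domain, found in the basal layer of vomeronasal neurons, which use the G protein subunit Gnao1 and the channel Trpc2 and detect peptide and protein pheromones. Most V2r genes are expressed by small subsets of those neurons. Family C, which is Vmn2r1 to Vmn2r7, is expressed broadly, so that a basal neuron carries a family C receptor together with a more selective one. The apical layer instead uses V1r receptors and Gnai2. The main olfactory epithelium is chiefly the site of odorant receptor neurons, and V2r expression is not among its known hallmarks.

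The targeted gene followed the labels, with Fezf1 at 11.25, 11.12 and 11.30 in heterozygous replicates 1 to 3 and at 5.56, 5.92 and 6.28 in null replicates 1 to 3. Omp, a marker of mature olfactory neurons, was at 11.84, 11.82 and 12.12 in heterozygous and 9.09, 10.77 and 10.84 in null replicates, and Gap43, a marker of immature ones, was between 11.44 and 12.79 on all arrays. Null replicate 1 stood apart: its values correlated with those of the other arrays at 0.905 to 0.935 over all genes, against 0.975 to 0.995 among the other arrays. Its mean level over 13 mesenchyme and bone genes was 9.75, against 6.25 and 6.63 on the other null arrays and 6.06 to 7.02 on the heterozygous arrays. Its mean level over 14 myeloid genes was 7.48, against 5.38 and 5.42 on the other null arrays and 5.19 to 5.50 on the heterozygous arrays. The main V2r results are given with and without this array, and the part of these cell types in them was not tested.

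The V2r receptors as a group lay near the bottom of the array's range. Their mean signals over the 6 arrays ran from 2.99 to 5.64 with a median of 3.39. Signals of different probe sets depend on the probes as well as on the transcript, so this order is not one of expression. For 42 of 46 members the mean was under the lower quartile of probe sets, which was 4.30 to 4.44 on single arrays, and 36 members were under it on every array. At signals this low the authors' background estimate weighs on the value, and cross-hybridisation between similar receptors cannot be separated from expression of one of them.

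**Figure D1:**
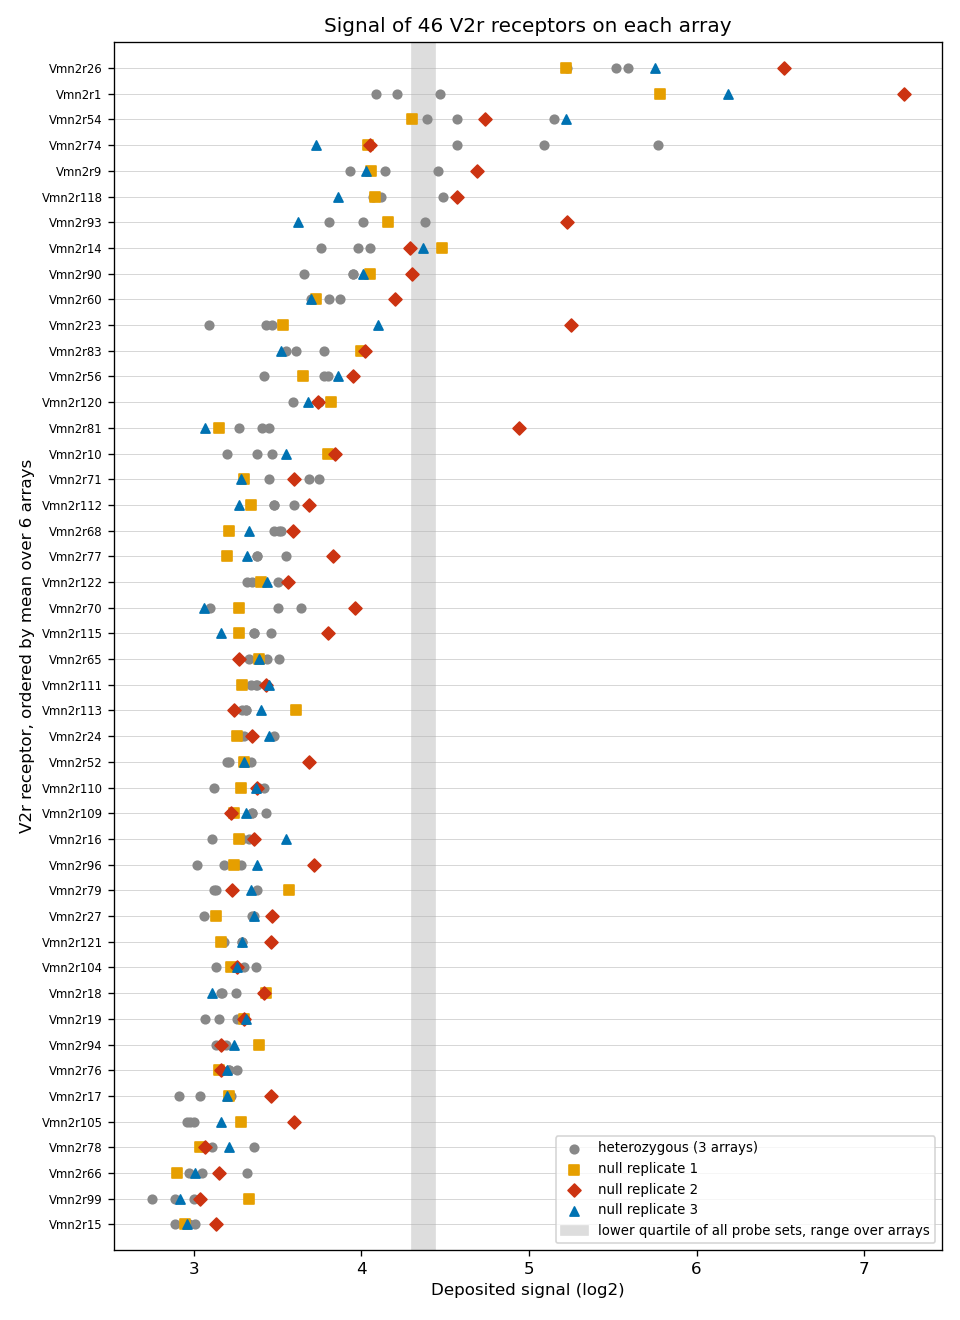
Deposited log2 signal (horizontal axis) of the 46 V2r receptors (vertical axis, ordered by mean over 6 arrays), with 1 point per array: heterozygous arrays as circles, null replicates 1, 2 and 3 as squares, diamonds and triangles. The shaded band is the range over arrays of the lower quartile of all probe sets, 4.30 to 4.44, and 42 of 46 members have a mean to its left. Vmn2r1 is the member whose null points lie farthest to the right of its heterozygous points.

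Vmn2r1 was the V2r receptor with the largest difference between genotypes. Its signal was 4.09, 4.21 and 4.47 in heterozygous replicates 1 to 3 and 5.78, 7.24 and 6.19 in null replicates 1 to 3. The groups did not overlap, and each null array exceeded the highest heterozygous array by more than 1 log2 unit. The difference was 2.15 (SE 0.37, 95% interval 1.23 to 3.06), the 5th largest increase of all 19938 genes, but with all 6 arrays it did not pass the threshold (limma, adjusted p = 0.111). Without null replicate 1 the difference was 2.46 (SE 0.29) and passed it (limma, adjusted p = 0.00995). Without null replicate 2, the array with the highest value, it was 1.73 (SE 0.19, limma, adjusted p = 0.0829).

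Markers of other neuron classes differed between the genotypes over the same arrays. All 17 markers of mature olfactory neurons had a negative difference (median -1.14), 0 of them passed with all arrays, and 6 were lower past the threshold without null replicate 1. Their mean level was 9.54 to 10.03 on heterozygous arrays and 7.68, 8.98 and 9.05 on null replicates 1 to 3. All 5 markers of guanylyl cyclase neurons, a small class of the olfactory epithelium, had a positive difference (median 1.04), 0 passed with all arrays, and Gucy2d, Car2 and Pde2a were higher past the threshold without null replicate 1. Their mean level was 6.20 to 6.32 on heterozygous arrays and 6.72, 7.76 and 7.65 on null replicates 1 to 3. The 13 markers of immature olfactory neurons were mixed: 3 had a positive difference (median -0.1) and 0 passed with all arrays. When null replicate 1 was left out, Chl1, Stmn4 and Ablim1 passed as higher, with a list median of 0.33. Chl1 also separated on all 6 arrays, at 4.36 to 4.56 against 5.24 to 6.37. The mean level of the 13 was 10.38 to 10.55 on heterozygous arrays and 9.74, 10.81 and 10.81 on null replicates 1 to 3. The part of any of these classes in the values of Vmn2r1, Gnai2 and Adcy2 was not tested.

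Set against the rest of its family, Vmn2r1 stood above the median of the other 45 receptors by 0.72, 0.86 and 1.04 on the heterozygous arrays and by 2.48, 3.65 and 2.82 on the null arrays. That gap was 0.87 ± 0.16 on heterozygous arrays and 2.98 ± 0.60 on null arrays (SD, n = 3 each), which differ by 2.11. Over the same arrays the median of the other 45 went from 3.38 ± 0.04 to 3.42 ± 0.16 (SD, n = 3 each), so the widening of the gap lay in Vmn2r1. The limma interval of 42 of those 45 receptors ended below the lower end of the interval of Vmn2r1.

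**Figure D2:**
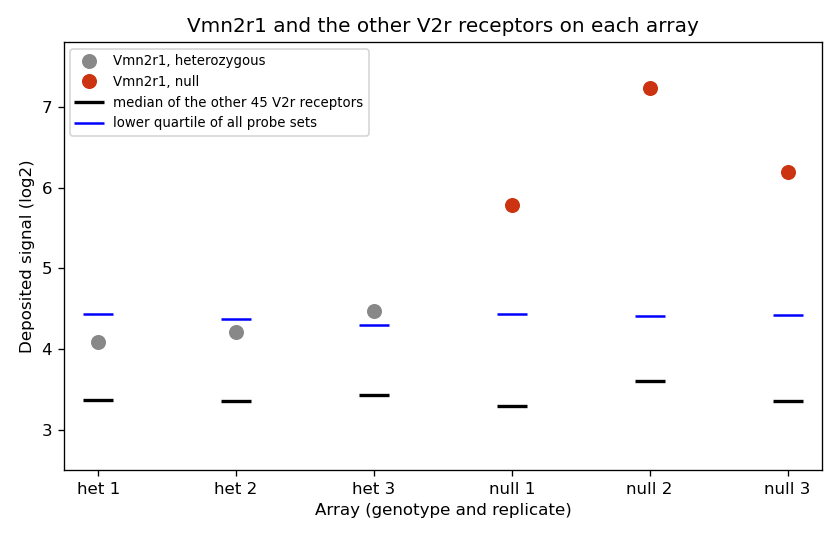
Deposited log2 signal (vertical axis) on each of the 6 arrays (horizontal axis, genotype and replicate) of Vmn2r1 (circles), beside the median of the other 45 V2r receptors (black bars) and the lower quartile of all probe sets (blue bars). Vmn2r1 is at 4.09 to 4.47 on heterozygous and 5.78 to 7.24 on null arrays, while the median of the others stays between 3.30 and 3.60.

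The other family C genes, Vmn2r2 to Vmn2r7, had no probe set with a single symbol, so Vmn2r1 alone represents the family among the members. A probe set assigned jointly to Vmn2r1, Vmn2r2, Vmn2r3, Vmn2r4, Vmn2r5 and a pseudogene read 4.82, 4.95 and 5.01 in heterozygous and 5.28, 6.04 and 5.68 in null replicates. Again the groups did not overlap, and the difference was 0.74 (SE 0.20), which did not pass the threshold in a limma fit over all 35557 probe sets (adjusted p = 0.406). A second joint probe set, for Vmn2r2, Vmn2r5 and the pseudogene without Vmn2r1, read 3.54, 3.57 and 3.85 against 3.21, 3.82 and 3.71, which overlap (difference -0.07).

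The sequence upstream of Vmn2r1 is shown because this receptor's signal separated from the rest of its family. It is the 250 bases before the RefSeq gene start (GRCm38.p6, chr3:64081392-64081641, plus strand), printed 5′ to 3′; for 100 of 116 V2r genes with such a window the annotated start is directly at the start codon, so the window lies upstream of translation and the transcription start may be elsewhere.
Vmn2r1: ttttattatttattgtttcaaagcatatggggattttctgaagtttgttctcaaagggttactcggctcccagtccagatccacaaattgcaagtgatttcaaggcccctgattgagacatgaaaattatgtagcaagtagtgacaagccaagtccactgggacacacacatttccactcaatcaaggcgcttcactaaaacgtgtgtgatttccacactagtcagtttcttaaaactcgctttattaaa
Its closest V2r window was that of Vmn2r3, with 68.6% identity over an aligned stretch of 169 bases, and with none of the other V2r windows did it align over 200 bases or more.

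The remaining 45 receptors as a set showed small differences. Over all 46 members the median difference was 0.08 (quartiles 0.00 and 0.21), against 0.02 over all genes, and 34 were positive, or 73.9% against 54.8% of all genes. In absolute size 35 of 46 differences were below 0.25, and for 40 members the 95% interval lay within 1 log2 unit on either side of 0. With limma 0 of 46 passed an adjusted p of 0.05, beside a background of 0.552% of all genes. At an unadjusted p under 0.05, 4 members were higher, beside 4.23% of all genes, and 1 was lower, beside 5.25%.

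The null and heterozygous values did not overlap for 10 members, with 7 higher in null cells (9.72% of all genes) and 3 lower (8.77%). The 7 were Vmn2r1, Vmn2r10, Vmn2r14, Vmn2r19, Vmn2r23, Vmn2r90 and Vmn2r105, and the 3 were Vmn2r74, Vmn2r76 and Vmn2r109. Without null replicate 1, 1 member passed the threshold, Vmn2r1, beside 2.66% of all genes. The median difference was then 0.11 with 35 positive. Without null replicate 2, 0 members passed (0.201% of all genes); an unadjusted p under 0.05 was reached by 2 higher members (3.07% of all genes) and 1 lower member (4.74%). Without that array the median difference was 0.0076 and 25 members were positive.

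**Figure D3:**
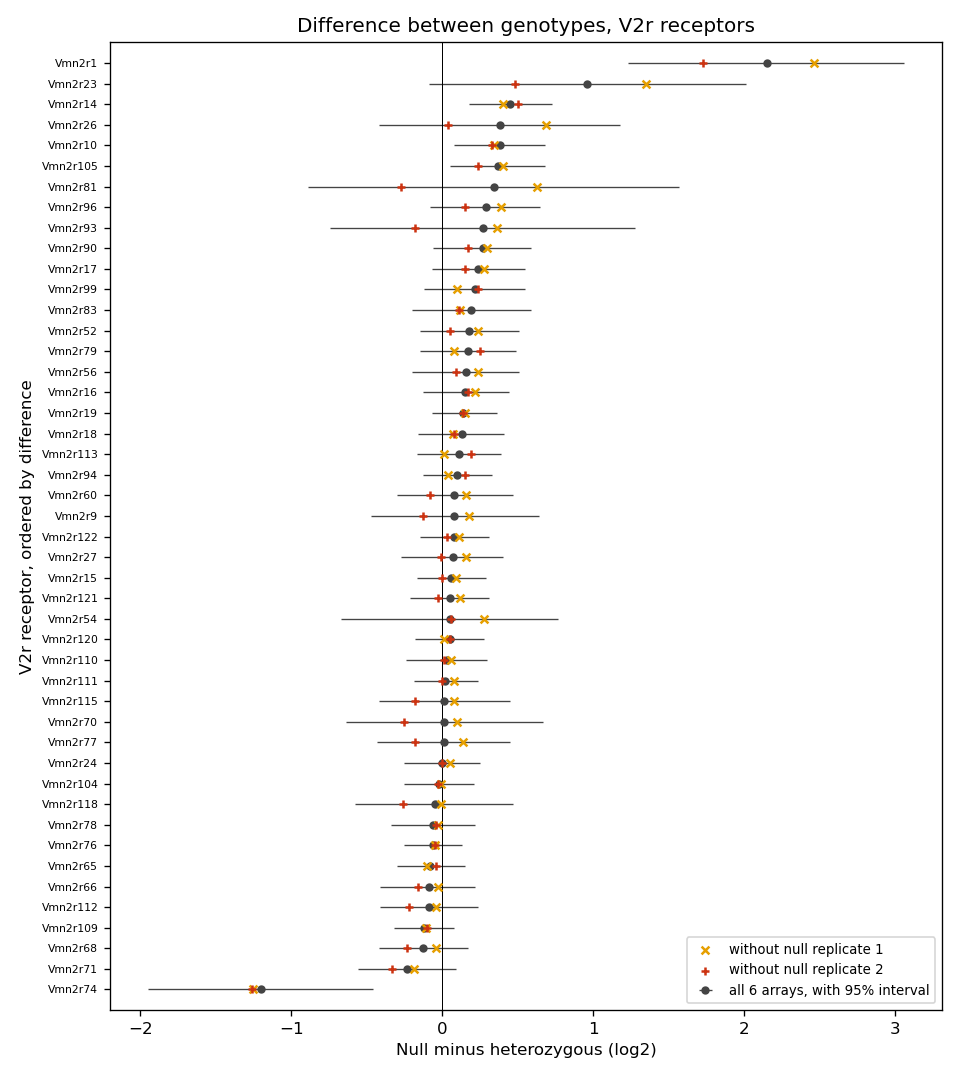
Difference between null and heterozygous arrays (log2, horizontal axis) for each of the 46 V2r receptors (vertical axis, ordered by difference); circles with bars are all 6 arrays with the 95% limma interval, crosses the fit without null replicate 1 and plus signs the fit without null replicate 2. Vmn2r1 at 2.15 and Vmn2r74 at -1.20 mark the ends, and 35 of 46 circles lie within 0.25 of 0.

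Among the more selective receptors, Vmn2r14 had the tightest separation. It read 3.76, 4.05 and 3.98 in heterozygous and 4.48, 4.29 and 4.37 in null replicates, a difference of 0.45 (SE 0.11, limma, adjusted p = 0.263). All 3 null arrays were above all 3 heterozygous arrays, and the difference stayed between 0.37 and 0.51 whichever array was left out. Its neighbour Vmn2r10 read 3.20, 3.38 and 3.47 against 3.80, 3.84 and 3.55 (difference 0.38, SE 0.12, limma, adjusted p = 0.406). These are low signals: with a floor at the lower quartile (4.39) the difference was 0.03 for Vmn2r14 and 0 for Vmn2r10. Both belong to a run of neighbouring genes, Vmn2r8 to Vmn2r17, in which 6 of 6 measured members had a positive difference, with a median of 0.20 and a range of 0.06 to 0.45; over all genes 54.8% were positive. Without null replicate 2, Vmn2r9 in that run was at -0.13 and Vmn2r15 at 0.00.

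Vmn2r105 was near the floor, at 3.00, 2.98 and 2.96 in heterozygous and 3.28, 3.60 and 3.16 in null replicates. Its groups did not overlap (difference 0.37, SE 0.13, limma, adjusted p = 0.458), although every value was below the lower quartile of the array. In the run of 8 measured neighbours that holds it, from Vmn2r124 to Vmn2r110, 6 differences were positive and the median was 0.16. Vmn2r96 in that run had overlapping groups and a difference of 0.29 (SE 0.15, limma, adjusted p = 0.616). Without null replicate 1 it was 0.39 (SE 0.14, limma, adjusted p = 0.234).

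Vmn2r23 had the second largest increase. It read 3.43, 3.09 and 3.47 in heterozygous and 3.53, 5.25 and 4.10 in null replicates, so that the 3 null arrays were above the heterozygous ones but spread over more than 1 log2 unit. The difference was 0.96 (SE 0.43, limma, adjusted p = 0.553) and 1.35 without null replicate 1 (limma, adjusted p = 0.0947). A second probe set of the same gene read 3.53, 3.56 and 3.63 against 3.70, 3.69 and 3.45, a difference of 0.04, so the probe sets of Vmn2r23 disagree. Of the other 5 members with a second probe set, Vmn2r113 had identical values on both, Vmn2r17 and Vmn2r83 gave equal differences of 0.24 and 0.19 on both of theirs, Vmn2r65 gave -0.08 and 0.00, and Vmn2r111 gave 0.02 and -0.22.

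Vmn2r26 had the highest mean signal of the members, at 5.52, 5.23 and 5.59 in heterozygous and 5.22, 6.52 and 5.75 in null replicates. Null replicate 2 was high and null replicate 1 was as low as the lowest heterozygous array, so the groups overlap (difference 0.38, SE 0.33). Vmn2r54 read 4.57, 5.15 and 4.39 against 4.30, 4.74 and 5.22, with a difference of 0.05 (SE 0.30). Vmn2r9 read 4.14, 3.93 and 4.46 against 4.06, 4.69 and 4.03, with a difference of 0.08 (SE 0.23). Neither separated the genotypes. The lowest members, Vmn2r15, Vmn2r99 and Vmn2r66, had means of 2.99, 2.99 and 3.07 and differences of 0.06, 0.22 and -0.09.

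Vmn2r74 was the one V2r receptor with a large difference in the other direction. It read 4.57, 5.09 and 5.77 in heterozygous and 4.04, 4.05 and 3.73 in null replicates. All null arrays were below all heterozygous arrays, and the heterozygous spread (SD 0.60) was the widest of any member in that group. The difference was -1.20 (SE 0.30, 95% interval -1.95 to -0.46), which did not pass the threshold (limma, adjusted p = 0.266), and it was -1.25 without null replicate 1 and -1.26 without null replicate 2. The other measured members of its run, Vmn2r65 to Vmn2r76, lay between -0.23 (Vmn2r71) and 0.01, with Vmn2r68 at -0.13, and 1 of 7 was positive.

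In the RefSeq gene order, that run of V2r genes sits between odorant receptor genes. Olfr305, 7 genes from Vmn2r74, fell by 3.00 (SE 0.20, limma, adjusted p = 0.0042), and Olfr295, 14 genes away, fell by 2.16 (SE 0.24, limma, adjusted p = 0.0264). The other 13 measured odorant receptor genes from 12 genes before to 15 genes after Vmn2r74 had differences from -1.80 to -0.20 and did not pass. Odorant receptors over the whole array had a median difference of -0.73, and 78 of 1015 passed the threshold as lower, beside 0.456% of all genes. Whether the odorant receptor transcripts contribute to the Vmn2r74 probe set was not tested.

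The 250 bases upstream of Vmn2r74 are printed for comparison with Vmn2r1, since these receptors lay at opposite ends of the family (GRCm38.p6, chr7:85961483-85961732, minus strand).
Vmn2r74: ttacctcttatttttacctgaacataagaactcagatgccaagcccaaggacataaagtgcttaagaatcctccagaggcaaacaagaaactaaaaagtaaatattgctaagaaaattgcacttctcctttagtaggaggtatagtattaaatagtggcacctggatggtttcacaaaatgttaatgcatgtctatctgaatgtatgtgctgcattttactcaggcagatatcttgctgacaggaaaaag
Their best local alignment covered 67 bases with 62.7% identity.

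Null replicate 2 was the array on which V2r signals were most often highest. It was the highest of the 6 arrays for 25 of 46 members (54.3%), against 15.1% of all genes and 20.5% of the 2636 other genes with a mean under the lower quartile. Relative to each member's heterozygous mean, the median V2r signal was -0.04 on null replicate 1, 0.19 on null replicate 2 and 0.04 on null replicate 3. In 5 members the SD of the null arrays exceeded 0.5, and all 5 (Vmn2r1, Vmn2r23, Vmn2r26, Vmn2r81 and Vmn2r93) were highest on null replicate 2.

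Vmn2r81 shows the pattern most plainly, at 3.27, 3.41 and 3.45 in heterozygous and 3.15, 4.94 and 3.07 in null replicates. Vmn2r93 read 4.38, 3.81 and 4.01 against 4.16, 5.23 and 3.62. In both, 1 null array was above every other array and the other null arrays were at or below the heterozygous range or within it. The difference of Vmn2r81 went from 0.34 to -0.27 without null replicate 2, and that of Vmn2r93 from 0.27 to -0.18.

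The V1r receptors, the apical counterpart, shared this array pattern. Of 117 measured V1r genes 83 (70.9%) were highest on null replicate 2, and their median difference was 0.18, with 0 past the threshold on all 6 arrays and 12 higher without null replicate 1 (0.993% of all genes). Among the null arrays alone, null replicate 2 exceeded the mean of the other null arrays by a median of 0.19 for V2r, 0.30 for V1r and 0.33 for odorant receptors, against 0.02 for all genes. Odorant receptors did not share the rise over heterozygous arrays. Their median over the heterozygous mean was -1.45, -0.46 and -0.35 on null replicates 1 to 3. Null replicate 2 was the highest of the 6 arrays for 6.7% of them, against 15.1% of all genes.

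Probe sets that carry several symbols with a V2r gene among them, which the rule for members leaves out, showed the signal of null replicate 2 at its largest. There were 38 of them with 36 distinct sets of values, and 20 members were also on them. The probe set of Vmn2r57 is counted, although its other symbol is outside the family. Null replicate 2 was the highest array for 32 of 38, against 15.2% of all probe sets. On null replicate 2, 16 of 38 exceeded every heterozygous array by more than 1 log2 unit, which 0.456% of all probe sets did. Of the 16, 14 were among the 17 probe sets of the group Vmn2r28 to Vmn2r52, which overlap in their symbols. They are not independent readings, so the count mostly describes that group. The counts of such an excess were 2 of 38 on null replicate 1 (3.23% of all probe sets) and 1 of 38 on null replicate 3 (0.335%). In the limma fit over all probe sets 0 of 38 passed, beside 0.318% of all, 1 was higher at an unadjusted p under 0.05 (7.88% of all in either direction) and 4 did not overlap, all higher (15.6% of all in either direction).

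The largest signals came from 17 probe sets shared among 14 genes of the run Vmn2r28 to Vmn2r52. The probe set of Vmn2r29, Vmn2r33, Vmn2r35 and Vmn2r43 read 3.86, 3.57 and 3.59 in heterozygous and 5.10, 7.62 and 3.58 in null replicates. Null replicate 2 was far above, null replicate 1 moderately above, and null replicate 3 inside the heterozygous range, so the groups overlap (difference 1.76, SE 0.96, limma, adjusted p = 0.719; 0.66 without null replicate 2). Across the 17 probe sets the median over the heterozygous mean was 0.78 on null replicate 1, 2.51 on null replicate 2 and -0.02 on null replicate 3. Vmn2r52 is the member of this run with a probe set of its own, and its difference was 0.18.

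A different array pattern was seen for 5 probe sets shared by Vmn2r19 to Vmn2r26, of which 3 had distinct values. The probe set of Vmn2r19, Vmn2r20 and Vmn2r23 read 5.39, 5.42 and 5.71 in heterozygous and 5.16, 6.63 and 6.82 in null replicates. Null replicates 2 and 3 were both high and null replicate 1 was below the heterozygous arrays. The difference was 0.70 (SE 0.44, limma, adjusted p = 0.751) with all arrays and 1.22 (SE 0.14, limma, adjusted p = 0.0353) without null replicate 1, the one shared V2r probe set past the threshold in that fit. Vmn2r19 by its own probe set had a difference of 0.14. Vmn2r23 by its own had 0.96, or 1.35 without null replicate 1, while its second probe set had 0.04 with all arrays.

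The probe set shared by 8 genes of the run with Vmn2r74, from Vmn2r67 to Vmn2r75, had a difference of -0.37, with the heterozygous arrays between 4.49 and 4.96 and null replicates 1 to 3 at 3.86, 4.83 and 4.18. Its sign matches that of Vmn2r74, but its groups overlap.

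**Figure D4:**
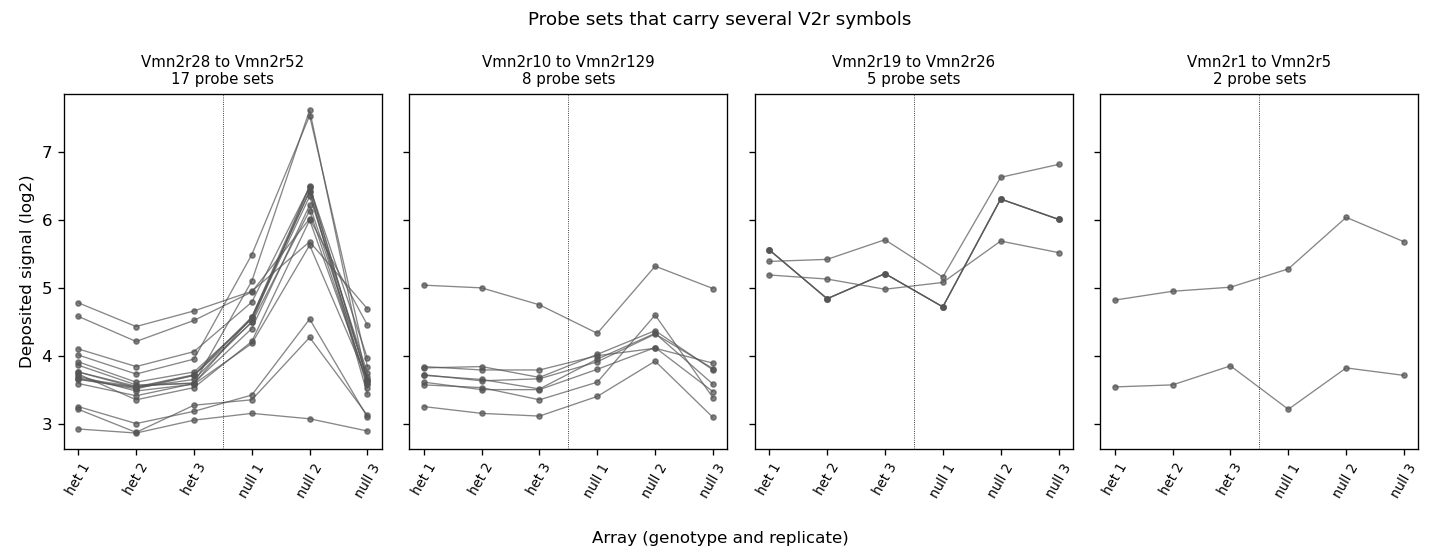
Deposited log2 signal (vertical axis) on each array (horizontal axis, genotype and replicate) for probe sets that carry several V2r symbols, in 4 panels by group of genes linked through shared probe sets, which need not be neighbours. Each line joins the values of 1 probe set and the dotted line divides the genotypes. In all but 1 of the 17 probe sets of Vmn2r28 to Vmn2r52 the peak is on null replicate 2, at up to 7.62. The exception, of Vmn2r28 and Vmn2r52, reads 3.15 on null replicate 1 and 3.07 on null replicate 2. Null replicate 3 is back at the heterozygous level in these 17. In the 5 probe sets of Vmn2r19 to Vmn2r26 both null replicates 2 and 3 are high.

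The upstream windows of Vmn2r33 and Vmn2r43 are printed because both genes are on the shared probe set with the highest signal, and they show how alike the genes of that run are. They are the 250 bases before the RefSeq starts on the minus strand (GRCm38.p6, chr7:7566787-7567036 and chr7:8260600-8260849), with a match to the motif CCCNNGGG in capitals.
Vmn2r33: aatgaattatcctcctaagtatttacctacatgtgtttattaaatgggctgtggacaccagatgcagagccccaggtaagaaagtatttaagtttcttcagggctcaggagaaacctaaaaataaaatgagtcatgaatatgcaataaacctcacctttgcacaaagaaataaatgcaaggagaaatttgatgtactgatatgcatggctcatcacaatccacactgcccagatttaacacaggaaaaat
Vmn2r43: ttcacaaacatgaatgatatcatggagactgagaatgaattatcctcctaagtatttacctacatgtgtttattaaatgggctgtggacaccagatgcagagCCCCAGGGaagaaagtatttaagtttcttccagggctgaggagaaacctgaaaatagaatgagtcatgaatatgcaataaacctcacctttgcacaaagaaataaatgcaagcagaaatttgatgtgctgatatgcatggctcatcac
They were 97.2% identical over an aligned stretch of 216 bases. Of the 91 pairs of windows among the 14 genes of this run, 56 aligned over at least 200 bases, with identities of 81.2% to 98.1%, against 757 of 6670 pairs (11.3%) among all V2r windows.

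Of the 46 members, 43 had a RefSeq window, and 3 motifs were counted in it on both strands. CCCNNGGG is the core bound by early B-cell factors, which are expressed in olfactory neurons. It was in 6.98% of the 43 member windows, 19.7% of 117 V2r windows and 11.8% of all 32851 windows. Most V2r windows with this motif belong to the run Vmn2r28 to Vmn2r52, where many windows are near copies of each other. Such matches are not independent, so the V2r share cannot be read as a trait of the whole family. TAATTA, a core of homeodomain sites, was in 9.30% of member windows, 16.2% of V2r windows and 4.84% of all windows. TATAAA, the TATA box core, was in 27.9% of member windows, 21.4% of V2r windows and 12.4% of all windows. None of the 3 motifs was in the printed windows of Vmn2r1, Vmn2r74 and Vmn2r33. None of these motifs contains another, and a match is a description of letters only.

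Probe sets for signalling partners of V2r receptors read above the lower quartile of probe sets on every array of both genotypes. Gnao1, the G protein subunit of basal vomeronasal neurons, which is also widespread in other neurons, read 10.36, 10.21 and 10.53 in heterozygous and 9.27, 10.63 and 10.56 in null replicates (difference -0.21). Trpc2, the channel that carries the transduction current, was on a probe set shared with 2 overlapping annotations, and read 7.87, 7.56 and 7.66 against 8.17, 8.18 and 8.29. Every null array was above every heterozygous array for Trpc2, with a difference of 0.51 (SE 0.11, limma over all probe sets, adjusted p = 0.275).

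Of 5 markers of basal vomeronasal neurons 0 passed the threshold, beside 0.552% of all genes, with a median difference of 0.21. Among them Tfap2e, a transcription factor of basal neurons, read 6.09, 5.75 and 5.79 against 6.11, 6.43 and 6.28 (difference 0.39, limma, adjusted p = 0.447). Calr4, a calreticulin of vomeronasal neurons, read 6.51, 6.53 and 6.89 against 5.77, 7.77 and 7.04, again highest on null replicate 2. B2m, the light chain that partners the H2-M10 proteins, was at 10.43 on null replicate 1 and between 9.09 and 9.26 on the other 5 arrays. For the 9 H2-M10 family genes, class Ib molecules found with V2r receptors on basal neurons, 0 passed beside the same share of all genes, the median difference was 0.17 and 6 were positive. H2-M10.3 was at 4.97, 4.94 and 4.98 in heterozygous and 5.27, 5.22 and 5.23 in null replicates (difference 0.28, SE 0.08, limma, adjusted p = 0.321).

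Apical and shared transduction genes held the ones that passed. Gnai2, the apical G protein subunit, which many other cells also express, read 9.20, 9.42 and 9.06 in heterozygous and 10.47, 10.36 and 10.36 in null replicates, and rose by 1.17 (SE 0.12, limma, adjusted p = 0.0201). Adcy2, an adenylyl cyclase of vomeronasal neurons, read 5.59, 5.98 and 5.37 against 6.97, 7.42 and 7.08, and rose by 1.51 (SE 0.20, limma, adjusted p = 0.0467). These were 2 of 11 measured transduction genes, beside 0.0953% of all genes higher past the threshold, with a median difference of 0.31, and 1 of 5 apical markers, with a median of 0.17. Differences were positive for 7 of the 11 and for 3 of the 5. Ano2 among the transduction genes (-1.32) and Pde4a among the apical markers (-0.78) were lower on every null array than on any heterozygous array, and neither passed. Gnai2 and Adcy2 also passed without null replicate 1, but both calls are lost without heterozygous replicate 1 or 3 or without null replicate 2 or 3 (0 passed in each). Gng2, a G protein gamma subunit, read 8.36, 8.24 and 8.24 against 8.35, 9.18 and 9.08 (difference 0.59, limma, adjusted p = 0.5), and passed without null replicate 1 (0.85, limma, adjusted p = 0.00821).

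Other receptor and developmental lists related to the vomeronasal organ gave no call with all 6 arrays, beside 0.552% of all genes. Of 12 genes of vomeronasal neuron development 0 passed and the median difference was -0.06. Without null replicate 1, Kirrel2, an adhesion molecule of olfactory axons, passed as lower (-1.21, limma, adjusted p = 0.0083), beside 2.66% of all genes in either direction. Of 4 formyl peptide receptors, chemoreceptors of another vomeronasal class, 0 passed and the median was 0.12. Of 20 class C receptors outside the V2r family, such as glutamate and taste receptors, 0 passed and the median was 0.12. Without null replicate 1, Gprc5c, an orphan receptor, passed as lower (-0.52, limma, adjusted p = 0.0335). In a sorted bulk sample, a change in the number of cells that express a gene and a change in RNA per cell cannot be told apart, and this holds for every difference given.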

How the data were processed

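RNA from 3 heterozygous and 3 null sorts of E18.5 main olfactory epithelium was measured on Affymetrix Mouse Gene 1.0 ST arrays, from 100 ng of total RNA per the labels. Per the submitters' processing notes, the authors made the log2 signals they deposited with GCRMA and with Affymetrix Expression Console, whose order and versions are not given in the sources used here. As no log base is stated, it was taken as 2, since values reach 14.51 and the natural logarithm of a 16-bit reading cannot exceed 11.1. Groups came from the genotype labels and replicate numbers from the titles. Values were used as deposited, with array medians of 5.82 to 5.95 and no filter on low values, and 3 arrays per group limit the precision.

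Of 35557 probe sets, 21789 carried 1 symbol in the platform annotation, 1621 several and 12147 were unlisted. Entrez numbers then gave the RefSeq symbol (GRCm38.p6) of 21698 probe sets. Genotypes were compared by lmFit and eBayes of limma 3.58.1 (R 4.3.3), two-sided and with 95% intervals, with Benjamini-Hochberg adjustment over 19938 genes and a threshold of 0.05. All adjusted p-values are from limma. An exact test of 3 against 3 cannot go below p = 0.1 and was not run. Probe sets with several symbols were fitted over all 35557, an alternative added after seeing the data, as was the use of the fits without null replicate 1 and without null replicate 2 beside each result. The procedure was tested on simulated data with the same spread for every gene and no array that stood apart. That test therefore does not cover an array such as null replicate 1.

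Named V2r receptors were Vmn2r1, members with an unadjusted p under 0.05 with all arrays or without null replicate 1, the 5 with the highest and 3 with the lowest means, and the 3 largest differences each way. Vmn2r81 and Vmn2r93, the members with non-overlapping groups and the second probe sets were named after their values were seen. From the other lists, up to 4 genes past the threshold or the 2 with the smallest p could be named, and Gnao1, Trpc2, Calr4, Gng2, Ano2, Pde4a, Gucy2d, Omp, Gap43 and the genes beside Vmn2r74 were chosen outside that rule after values were seen. The members and gene lists were chosen with earlier results of these data known. Upstream windows are RefSeq sequences of GRCm38.p6, matched by symbol, and were aligned locally with Biopython 1.88. Neighbouring runs of V2r genes join those with at most 5 other genes between them in the RefSeq order.

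Alternatives were a floor at the lower quartile (4.39), quantile normalization, median centring, a filter at the median mean, the mean of probe sets, several symbols allowed, eBayes with trend and robust, an unmoderated model, array weights, a replicate block, and each array left out in turn.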

Additional observations from a re-analysis of the deposited data

Results flagged for a closer look

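Probe sets that carry several V2r symbols are outside the comparison of the 46 members. They were grouped by the symbols they share, and such a group need not be a single run of neighbouring genes. In 4 groups the highest null value lay more than 1 log2 unit above the highest heterozygous value of the same probe set. For probe sets shared by Vmn2r28 to Vmn2r52 the excess was 3.76, on null replicate 2. For those shared by Vmn2r19 to Vmn2r26 it was 1.11, on null replicate 3. For those shared by Vmn2r10 to Vmn2r129 it was 1.04, and for those shared by Vmn2r1 to Vmn2r5 it was 1.03, both on null replicate 2. On null replicate 2, an excess above 1 was seen in 0.456% of all probe sets. None of these probe sets passed the limma threshold with all 6 arrays.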

How the results depend on the processing

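The count of 0 V2r receptors past the threshold was 1 (Vmn2r1) with array weights and 0 to 1 when single arrays were left out, and 0 under the other settings run. With several symbols allowed the median difference was 0.27 over 82 genes, and under the other settings it stayed between 0.00 and 0.13. The 10 members without overlap became 2 with a floor and 10 to 18 when an array was left out. With fewer arrays in a group, values separate more easily for any gene. The shares of all genes at these settings are not given, so these counts are not a result about V2r receptors. The difference of Vmn2r1 was 2.59 with array weights (limma, adjusted p = 0.00851) and 1.73 to 2.46 when an array was left out, and it passed the threshold only with array weights and without null replicate 1. Over all genes 110 calls became 55 with the floor, 24 with the filter, 740 with array weights, 8 without moderation and 40 to 531 when an array was left out. The filter at the median mean kept 9969 genes and left no V2r receptor. Small differences changed sign when an array was left out: Vmn2r54 ran from -0.18 to 0.28 (-0.02 and -0.10 among them), Vmn2r66 from -0.17 to 0.01, and Vmn2r9 from -0.13 to 0.23 (-0.04 among them). The 2 transduction genes past the threshold were 0 with the floor and without moderation. Deviations of samples with the same replicate number correlated at 0.225, -0.332 and 0.541 for numbers 1 to 3, so the numbers were not taken to pair the samples. With the replicate block Vmn2r1 was at 2.15 (SE 0.32, limma, adjusted p = 0.149), with 0 V2r receptors called; under the block the calls went from 2 to 1 among transduction genes and from 1 to 0 among apical markers, where the lost gene was Gnai2. Signals under the lower quartile limit what can be seen of 42 members.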
